A study of Mus musculus with 6 samples.

Results

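Oligodendrocytes wrap the axons of the brain and spinal cord in myelin. The miR-130 and miR-301 miRNAs were compared between mouse oligodendrocyte cultures and the vesicles gathered from their medium. The family is represented here by 6 mature sequences out of the 1906 mature miRNAs in each count table. Of the 6, miR-130a-3p, miR-130b-3p, miR-301a-3p and miR-301b-3p are 3p arms, and miR-130b-5p and miR-301a-5p are 5p arms. The rows were taken by name, but the family was chosen by measured values, the fold changes of its arms between vesicles and cells and the arm ratios of miR-130b and miR-301a. These values are therefore given as descriptions. The fits ran over whole tables. Calls for the family appear as counts beside the share called among all miRNAs or hairpins. Named members are given with their calls to list those counts and how they depend on the processing. None of these calls is evidence about the family.

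There were 3 libraries of extracellular vesicles (EVs) and 3 of whole cells, all from primary oligodendrocyte cultures of C57BL/6N mice at embryonic day 14, grown with 1% horse serum. Before collection the cultures were washed, and vesicles gathered for 24 h in Sato medium with B27 supplement and no serum. The EV samples date from 5 to 6 days in culture and were pelleted by spins of up to 100000 g. The cells date from 6 days. Neither group carries a transgene or other treatment in the labels, and a library of medium alone was not analysed here.

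A miRNA gene is transcribed as a longer RNA that folds into a hairpin, and Dicer cuts the hairpin into a short duplex of a 5p and a 3p arm. An Argonaute protein keeps mainly one arm, the guide, which finds its messenger RNAs through the seed, bases 2 to 8. The 3p arms are the usual guides of the miR-130 and miR-301 hairpins and share a seed. A messenger RNA known to be repressed by miR-130 is Pparg, a regulator of fat cell formation. Of the hairpins, miR-301a lies in an intron of Ska2, a spindle and kinetochore gene, on chromosome 11. miR-130b and miR-301b are neighbours on chromosome 16 in an intron of 2610318N02Rik, and miR-130a has a locus of its own on chromosome 2, all in the GRCm38 annotation and on the strand of the host gene where there is one.

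The sequences below are shown because the seed defines the family and because 2 of the 3p arms are nearly the same. They are RefSeq's mature sequences (GRCm38.p6), 5′ to 3′, with bases 2 to 8 in capitals; 5 of the 6 members had an entry in the table used.
miR-130a-3p: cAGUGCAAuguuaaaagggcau
miR-130b-3p: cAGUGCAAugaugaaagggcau
miR-301a-3p: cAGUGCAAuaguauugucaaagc
miR-130b-5p: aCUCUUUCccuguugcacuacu
miR-301a-5p: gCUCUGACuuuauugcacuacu

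The 3 printed 3p arms had the same first 9 bases, whereas the 5p arms had seeds of their own. miR-130a-3p and miR-130b-3p were identical at 20 of 22 positions and differed by U11A and A13G, counted from the 5′ end with the base of miR-130a-3p first. miR-301a-3p matched miR-130a-3p at 12 of 22 positions. How the authors assigned a read that fits several miRNAs is not given in the sources used here, so reads of miR-130a-3p and miR-130b-3p could have been exchanged. The letters UUGCACU, the reverse complement of the shared seed, stood in 3 of the 4 5p arms of these hairpins.

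Total counts were 313766 to 689475 in EVs and 126910 to 202358 in cells, so 1 read amounted to 1.45 to 3.19 CPM (reads scaled to equal library totals) among EVs, compared with 4.94 to 7.88 CPM among cells. The miRNAs fixed as oligodendrocyte markers (miR-219a and miR-338, both arms) were all detected, summing to 29281 to 39683 CPM in cells and to 22662 to 25439 CPM in EVs. Markers of other cells were also present. The neuronal list (3 miRNAs) summed to 6953 to 13907 CPM in cells and 22059 to 30116 CPM in EVs. The hepatocyte list (2 miRNAs) summed to 29.7 to 47.3 CPM in cells and 4197 to 8321 CPM in EVs, and the red blood cell list (3 miRNAs, with miR-144-5p at 0 in all cell libraries) to 12.8 to 63.0 and 2895 to 6153 CPM. The smooth muscle and mesenchymal list (3 miRNAs) summed to 355 to 999 CPM in cells and 2371 to 4656 CPM in EVs, and the myeloid list (3 miRNAs) to 378 to 850 and 290 to 485 CPM. By the fit across all miRNAs described below, the tested markers called higher in EVs were 3 of 3 neuronal, 1 of 1 hepatocyte, 1 of 1 red blood cell and 2 of 2 smooth muscle and mesenchymal miRNAs. Over all tested miRNAs, 28.6% were called higher in EVs and 28.9% lower. Of 4 oligodendrocyte markers 1 was called higher and 3 lower, and of 3 myeloid markers 2 were called lower. The part of such cells, or of the medium, in the levels below was not tested.

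By CPM, which is not corrected for composition, the 3p arms were all more abundant in EVs, and the 5p arms were not. Higher CPM in EVs without overlap of the groups was common, at 47.3% of the miRNAs tested below. Correction for composition (TMM, below) made the differences of the 3p arms smaller. Their log2 fold changes were 1.57 to 2.38 with library size only and 1.11 to 1.94 with TMM. Together the 4 3p members made up 0.427% to 0.514% of EV reads and 0.0877% to 0.121% of cell reads. Their summed level averaged 4812 ± 472 CPM over the EV libraries and 1100 ± 193 CPM over the cell libraries (mean ± SD, n = 3 each, as throughout), a ratio of means of 4.37. The sum of both 5p members went the other way, at 147 ± 28.5 CPM and 366 ± 71.5 CPM. All these levels are shares of the miRNA reads of a library. More vesicles with a miRNA, more copies per vesicle and fewer copies of other miRNAs therefore cannot be told apart.

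miR-301a-3p, the guide strand of its hairpin, was the most abundant member in each of the 6 libraries. It stood at 3619, 4092 and 2849 CPM in EVs replicates 1, 2 and 3, and at 506, 756 and 766 CPM in Cells replicates 1, 2 and 3. Each EV library lay above each cell library, and EVs replicate 2 was the highest. The means were 3520 ± 628 CPM and 676 ± 148 CPM, and the level ranked 53rd of all miRNAs in EVs and 106th in cells. The log2 fold change, EVs over cells, was 1.94 (SE 0.25) with TMM scaling, which corrects the library totals for composition. Within same-numbered pairs, EVs were 7.16, 5.41 and 3.72 times as high in CPM.

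miR-130a-3p, known in human endothelial cells for repressing the anti-angiogenic homeobox genes GAX and HOXA5, was the next most abundant 3p arm. Its EV levels were 1065, 628 and 941 CPM in replicates 1, 2 and 3. Its cell levels were 243, 323 and 311 CPM. The groups did not overlap, and EVs replicate 2, the highest for miR-301a-3p, was the lowest EV library here. The log2 fold change was 1.12 (SE 0.23). The pairs gave CPM ratios of 4.38, 1.94 and 3.02.

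miR-130b-3p, the near-copy of miR-130a-3p, had the same pattern at a lower level. Its levels were 353, 188 and 373 CPM in EVs. In cells they were 89.6, 110 and 89.0 CPM and rested on 14, 14 and 18 reads. EVs replicate 2 was again the lowest EV library, still above all cell libraries. The log2 fold change was 1.20 (SE 0.30). The ratio of miR-130a-3p to miR-130b-3p reads was 2.96 ± 0.41 in EVs and 3.05 ± 0.41 in cells, a difference smaller than the spread within either group.

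miR-301b-3p, from the hairpin next to miR-130b, was the least abundant 3p arm. The EV libraries had 102, 118 and 109 CPM, against 38.4, 23.6 and 44.5 CPM in the cell libraries. The EV libraries were close together and lay above all cell libraries, but the cell values came from 6, 3 and 9 reads. With reads pooled over each group, its share of reads was 2.93 times as high in EVs, with a 95% exact binomial interval of 1.796 to 5.08 that covers counting error only. The log2 fold change was 1.11 (SE 0.36). Its call, given below, was lost with DESeq2 and when EVs replicate 2 (0.91) or Cells replicates 2 (0.89) and 3 (1.26) were left out singly.

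miR-130b-5p, the partner strand of miR-130b-3p, had the opposite pattern. The EV libraries had 74.2, 112 and 100.1 CPM, and the cell libraries 384, 252 and 267 CPM. Every EV library lay below every cell library, with Cells replicate 1 the highest. The log2 fold change was -2.15 (SE 0.31), from 136 reads in EVs and 146 in cells. In same-numbered pairs the cells were 5.17, 2.26 and 2.67 times as high in CPM.

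miR-301a-5p, the partner strand of miR-301a-3p, had low levels in both groups. The EV libraries had 44.1, 63.7 and 46.4 CPM and the cell libraries 64.0, 63.0 and 69.2 CPM, and the groups overlapped through EVs replicate 2. The log2 fold change was -0.84 (SE 0.36) with TMM scaling and -0.37 (SE 0.36) with library size only. The cell values rested on 10, 8 and 14 reads. The pooled share of reads was 0.751 times as high in EVs, with a 95% exact binomial interval of 0.488 to 1.18.

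**Figure D1:**
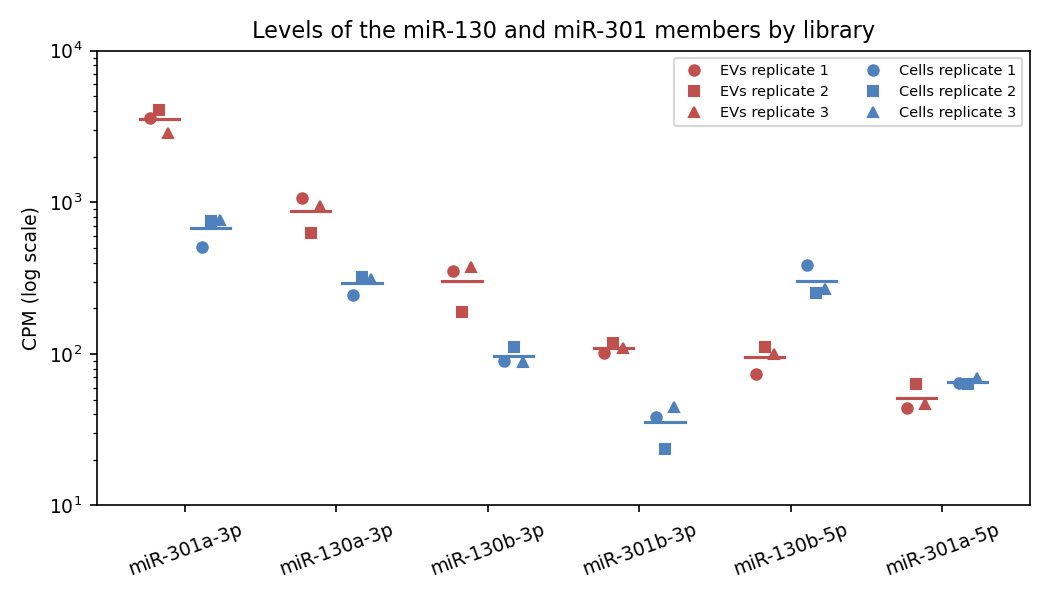
Level of each member in CPM (log axis) in the 3 EV and 3 cell libraries, with marker shape for the replicate number and a line at the mean of each group. For the 4 3p arms all EV libraries lie above the cell libraries, for miR-130b-5p they lie below, and for miR-301a-5p the groups overlap.

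The position of miR-130b-5p in the order of levels differed most between the groups. In cells, miR-130b-5p (301.05 ± 72.3 CPM) took position 2, and its range overlapped that of miR-130a-3p (293 ± 43.1 CPM), which it exceeded in 1 of 3 libraries. In EVs, miR-130b-5p (95.3 ± 19.1 CPM) took position 5, and its range overlapped that of miR-301b-3p (110 ± 7.95 CPM). All other neighbours in either order had ranges that did not overlap. In EVs that order was miR-301a-3p, miR-130a-3p, miR-130b-3p, miR-301b-3p, miR-130b-5p and miR-301a-5p. In cells, miR-130a-3p was followed by miR-130b-3p (96.3 ± 12.1 CPM), miR-301a-5p (65.4 ± 3.30 CPM) and miR-301b-3p (35.5 ± 10.7 CPM). These counts are per mature miRNA of nearly equal length, and ligation bias between sequences may shift levels between miRNAs.

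Across the table of 336 miRNAs that passed a filter on low counts, all 6 members were tested with the rest by edgeR's quasi-likelihood test. At a Benjamini-Hochberg adjusted p below 0.05, 4 of the 6 members were called higher in EVs, beside 28.6% of all tested miRNAs, and 1 was called lower, beside 28.9%. The members called higher were the 4 3p arms, the member called lower was miR-130b-5p, and miR-301a-5p was not called. The CPM of the groups did not overlap with EVs above for 4 members, beside 47.3% of tested miRNAs, and with EVs below for 1, beside 20.2%. Since this contrast chose the family, nothing is read from these counts. The median log2 fold change was 1.16 over the 4 3p members and 0.06 over all tested miRNAs. From the highest fold change down, miR-301a-3p ranked 17th of 336, miR-130b-3p 48th, miR-130a-3p 52nd and miR-301b-3p 53rd. From the lowest up, miR-130b-5p ranked 16th and miR-301a-5p 89th.

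**Figure D2:**
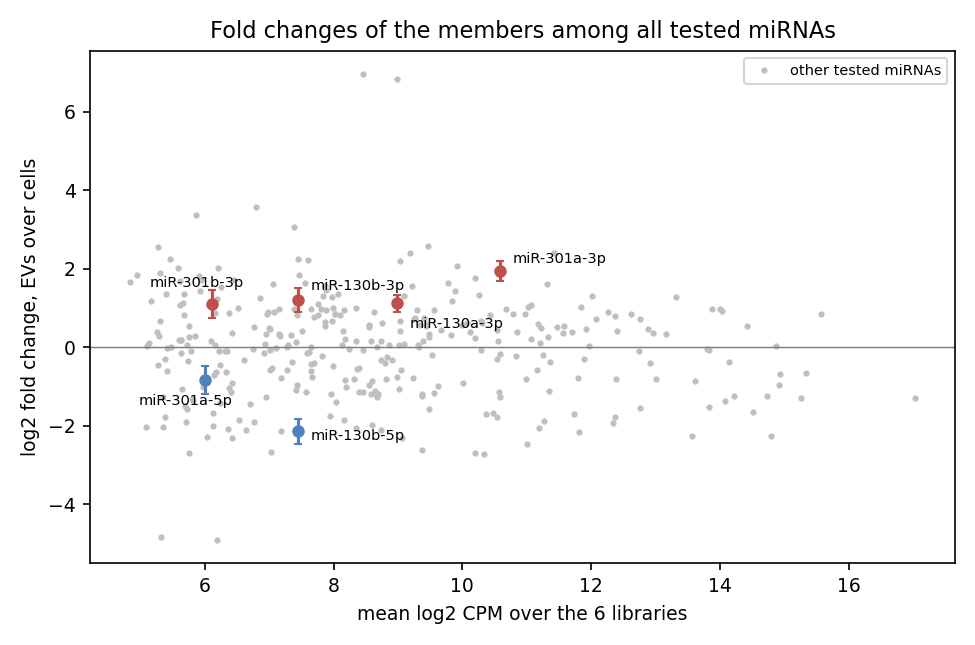
Log2 fold change, EVs over cells (edgeR, TMM), against mean log2 CPM for the 336 tested miRNAs, with the 3p members in red and the 5p members in blue; bars are ± 1 SE. The 3p members lie between 1.11 and 1.94, and the 5p members lie below 0.

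With library size in place of TMM scaling, the median of all tested miRNAs moved from 0.06 to 0.54. The fold change of miR-301a-3p was then 2.38 and that of miR-130b-5p -1.66. No member changed direction under any scaling run.

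The make-up of the 3p reads also differed between the groups. miR-301a-3p held 70.4%, 81.4% and 66.7% of the summed 3p reads in EVs replicates 1, 2 and 3, and 57.7%, 62.3% and 63.3% in the cell libraries. The groups did not overlap, although the 95% exact binomial intervals reached EV values in Cells replicates 2 (54.2% to 70.0%) and 3 (56.9% to 69.3%). miR-130a-3p held 20.7%, 12.5% and 22.0% in EVs and 27.7%, 26.6% and 25.7% in cells, again without overlap. EVs replicate 2 stood apart from the other EV libraries in both shares. miR-130b-3p held 3.74% to 8.73% of the 3p reads in EVs and 7.35% to 10.2% in cells, and miR-301b-3p 1.99% to 2.55% and 1.95% to 4.38%. For both of these the groups overlapped. For the neighbouring hairpins, the ratio of miR-130b-3p to miR-301b-3p reads was 2.83 ± 1.07 in EVs and 3.00 ± 1.45 in cells, a difference smaller than the spread between libraries.

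**Figure D3:**
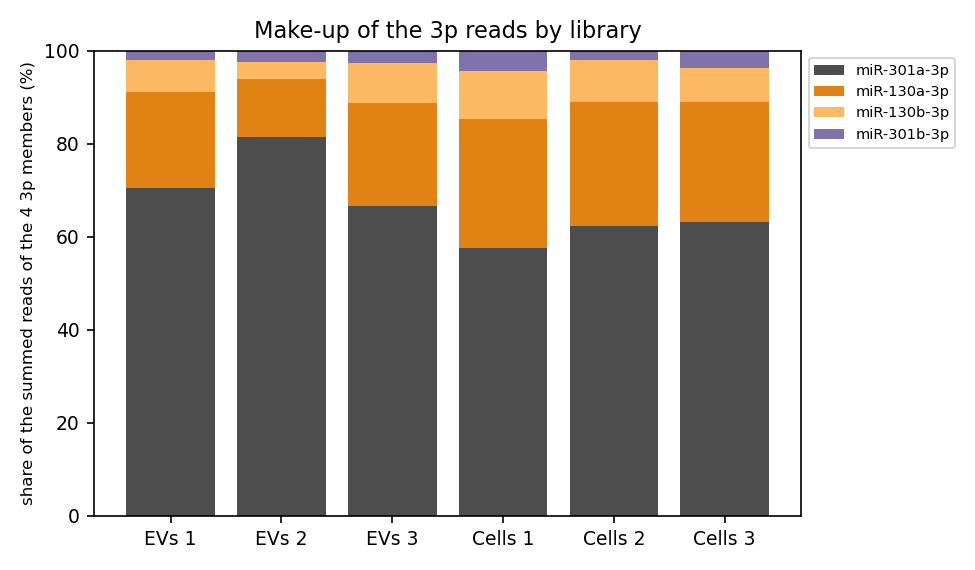
Share of each 3p member in the summed reads of the 4 3p members, in percent, for each library. miR-301a-3p takes the largest part in all 6 libraries, 66.7% to 81.4% in EVs and 57.7% to 63.3% in cells.

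The arm ratio compares both strands of a hairpin within a library and needs no scaling between libraries. The fitted log2 ratio has 0.5 reads added to each arm, so for arms with few reads it depends on depth. For miR-130b the main arm by assigned reads changed from 5p in cells to 3p in EVs. Reads assigned to its 3p arm could include exchanged reads of miR-130a-3p, as said above, and their part was not tested. The 5p arm had 60 of 74, 32 of 46 and 54 of 72 reads in Cells replicates 1, 2 and 3. In EVs replicates 1, 2 and 3 it had 32 of 184, 35 of 94 and 69 of 326 reads. The 5p arm thus held 81.1%, 69.6% and 75.0% of both arms in cells and 17.4%, 37.2% and 21.2% in EVs. The 95% exact binomial interval lay above 50% in each cell library (lowest bound 54.2%) and below 50% in each EV library (highest bound 47.8%). These intervals cover counting error only. They are no test, since this ratio was among the values that chose the family. The log2 ratio of 5p to 3p changed by -3.22 (SE 0.51, limma) from cells to EVs.

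For miR-301a the 3p arm was the main arm in all libraries, and the 5p share was lower in EVs. The 5p arm held 11.2%, 7.69% and 8.28% of both arms in Cells replicates 1, 2 and 3, from 10 of 89, 8 of 104 and 14 of 169 reads. It held 1.20%, 1.53% and 1.60% in EVs replicates 1, 2 and 3, from 19 of 1579, 20 of 1304 and 32 of 1996 reads. The groups did not overlap, and the highest upper bound in EVs (2.36%, exact binomial) was below the lowest lower bound in cells (3.38%). Such bounds cover counting error only and describe a ratio that helped to choose the family, so they are no test. The log2 ratio changed by -2.79 (SE 0.41, limma).

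**Figure D4:**
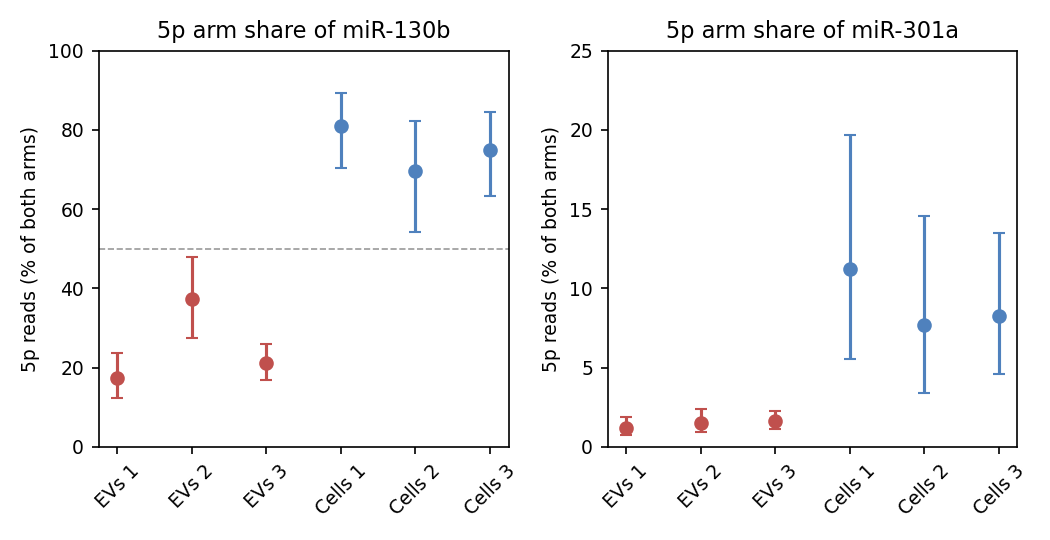
Share of 5p reads in the reads of both arms of miR-130b (left) and miR-301a (right), in percent, for each library; bars are 95% exact binomial intervals, the dashed line marks 50%, and the vertical scales differ. miR-130b lies at 69.6% to 81.1% in cells and 17.4% to 37.2% in EVs, and miR-301a at 7.69% to 11.2% and 1.20% to 1.60%.

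The other hairpins of the family had few 5p reads. miR-130a-5p had 0, 1 and 1 reads in Cells replicates 1, 2 and 3 and 2, 1 and 4 in EVs replicates 1, 2 and 3, which is 0% to 2.38% and 0.434% to 0.613% of both arms. Its log2 ratio changed by -1.76 (SE 0.48), a value that rests on the 0.5 reads added to each arm. The change was -0.97 with 0.1 added and -2.08 with 1 added. These alternatives were run for miR-130a after seeing the data. miR-301b-5p had 1 read in the cell libraries together and 4 in the EV libraries, too few for the test.

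Of 187 hairpins tested by limma, 43 had a lower 5p to 3p ratio in EVs at an adjusted p below 0.05 (23.0%), and 24 had a higher one (12.8%). All 3 tested hairpins of the family, miR-130a, miR-130b and miR-301a, were among the 43, from which nothing is read, since arm ratios were among the values that chose the family. In 21.9% of hairpins the 5p share was lower in every EV library than in every cell library. The median change over all hairpins was -0.46, with quartiles at -1.45 and 0.52. Among these hairpins too, changes of arms with few reads depend on the reads added and on depth. miR-130b ranked 6th and miR-301a 11th from the most negative change. A main arm that was 5p in all cell libraries and 3p in all EV libraries was found in 3 hairpins, miR-130b, let-7d and miR-338, and the reverse in 2, miR-32 and miR-335. These 4 other hairpins were named after their values were seen.

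**Figure D5:**
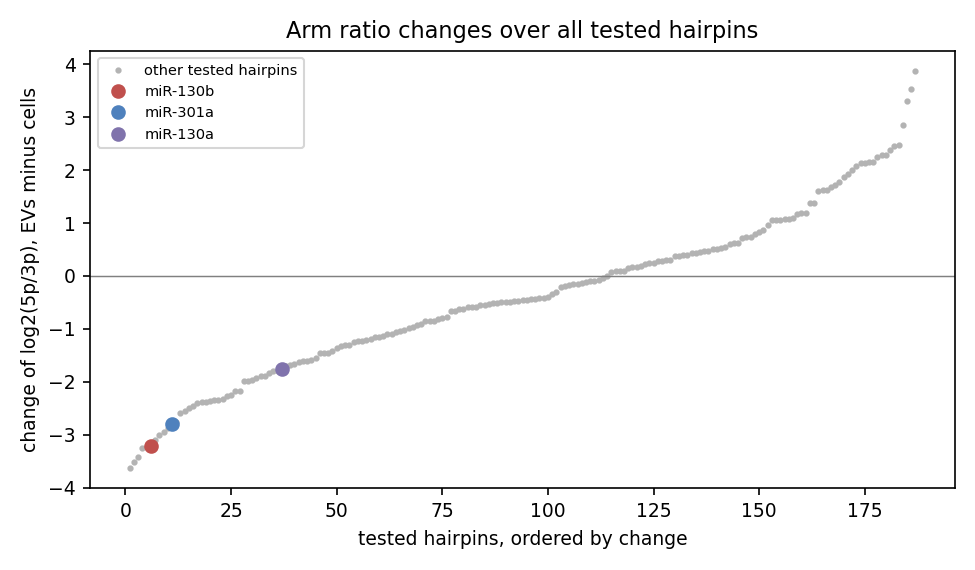
Change of log2(5p/3p) from cells to EVs for the 187 tested hairpins, in order of size. miR-130b (-3.22), miR-301a (-2.79) and miR-130a (-1.76) lie among the negative changes, and the median of all hairpins is -0.46.

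The seed is also found in other annotated mouse miRNAs. Of the 1679 different mature names in the sequence table, 7 had the letters AGUGCAA at bases 2 to 8. Besides the 3 printed 3p members these were miR-130c, miR-721, miR-6341 and miR-6389. Each had 0 reads in all 6 libraries, which allows up to 3 reads per library, equal to 4.35 to 9.56 CPM among EVs, compared with 14.8 to 23.6 CPM among cells.

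Both the miR-148 and miR-152 family, which regulates metabolic genes in liver among others, and the miR-19 family, the growth-promoting part of the miR-17 to miR-92 cluster, have related 5′ ends. They are shown with the run shared with bases 1 to 8 of miR-130a-3p in capitals.
miR-148a-3p: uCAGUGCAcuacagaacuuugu
miR-19b-3p: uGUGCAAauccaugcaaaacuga

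In the miR-148 and miR-152 family the run covers bases 2 to 8 and equals bases 1 to 7 of miR-130a-3p, a shift of 1 base. In the miR-19 family it covers bases 2 to 7 and equals bases 3 to 8. miR-148a-3p averaged 7493 ± 1381 CPM over the EV libraries and 1009 ± 105 CPM over the cell libraries (log2 fold change 2.41, SE 0.21). miR-148b-3p was not called, at 2729 ± 402 and 2557 ± 479 CPM (-0.37, SE 0.21), and neither was miR-152-3p, at 330 ± 77.1 and 160 ± 36.6 CPM (0.55, SE 0.26). miR-19a-3p stood at 5258 ± 688 and 1279 ± 442 CPM (1.61, SE 0.26) and miR-19b-3p at 19007 ± 2752 and 5813 ± 2150 CPM (1.29, SE 0.26). Thus 1 of 3 members of the miR-148 list and 2 of 2 of the miR-19 list were called higher in EVs and 0 lower, beside the 28.6% given above. Their median log2 fold changes were 0.55 and 1.45.

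The miRNAs most like miR-301a-3p over the 6 libraries were miR-497a-5p, miR-19a-3p and miR-592-5p. Likeness was the Euclidean distance between log2 CPM centred on each miRNA's mean, among 255 others with a mean of at least 100 CPM. These distances were 0.43, 0.51 and 0.60, with a median of 2.42 over all 255. The log2 fold changes of these miRNAs were 2.25, 1.61 and 1.64. Those most like miR-130b-5p were miR-100-5p, miR-181a-2-3p and let-7a-5p, at distances of 0.45, 0.53 and 0.62 with a median of 2.86. Their log2 fold changes were -1.94, -2.11 and -2.27. The distances follow the difference between the groups and share the same 6 libraries.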

How the data were processed

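The authors deposited a table of raw read counts of mature miRNAs for each library. Build NCBIM37 (mm9) and the tools featureCounts 1.4.6-p4, Bowtie 0.12.8, cutadapt 1.7.1 and bcl2fastq 1.8.4 are named per the submitters' processing notes. Settings, strand, the rule for reads with several matches, and any use of the random adapter bases against PCR duplicates were not given in the sources used here, so intervals cover counting error only. Coordinates are not given, as the reference tables are of GRCm38.

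CPM used the total counts. EVs were compared with cells over all miRNAs by edgeR 4.0.16 (glmQLFTest, TMM, filterByExpr with minimum count 10, group only, R 4.3.3), adjusted by Benjamini-Hochberg. Arm ratios, log2((5p + 0.5)/(3p + 0.5)), were fitted by limma 3.58.1 for hairpins with at least 10 reads over both arms in every library, with copies of a hairpin summed. Both procedures were tested on simulated data. The members, lists, tests and rules for naming miRNAs were chosen with earlier results of these data known. The miRNAs named were the members, rows with their name or seed, the lists of seed relatives and the 3 most like miRNAs.

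Samples were grouped and numbered as labelled; nothing there says that replicates were separate cultures, so the spread between them may be technical. Libraries of both groups with the same number had correlated deviations from the group means (r 0.115, 0.106 and 0.256 over the 336 tested miRNAs). The numbers were therefore treated as pairs in an alternative. The others correlated at -0.148 to 0.021. Deviations within a group sum to 0, so these lower values follow from the positive ones and are not separate evidence of pairing. By chi-square per degree of freedom (7.73 to 37.5), no replicates were repeats of a library. Alternatives covered scaling, DESeq2 1.42.0, limma-voom, filters, depth, pairing and left-out libraries.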

Additional observations from a re-analysis of the deposited data

How the results depend on the processing

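With the replicate number as a block, 4 members were called higher and 1 lower, with log2 fold changes of 1.92 for miR-301a-3p and -2.12 for miR-130b-5p, and no member changed its call, nor did the arm ratio of miR-130a, miR-130b or miR-301a. No fold change or arm ratio of a member changed direction under any alternative run. The number of members called lower was 2 in place of 1 with limma-voom and without the most abundant miRNA, since miR-301a-5p (-0.95 and -0.94) was then called. The number called higher was 3 to 4 and the number called lower 1 to 2 when a library was left out; miR-301a-5p was called without EVs replicate 2 (-1.14). miR-301b-3p was not called with DESeq2 (1.06). After thinning each library to 126910 reads, miR-301a-5p and miR-301b-3p fell below the filter and have no value.

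Over the whole table, library size alone gave 148 higher and 60 lower, 71.2% higher in place of 49.7%, and leaving out a library gave 66 to 101 higher and 88 to 98 lower. When a library was left out, the arm ratio change lay between -3.65 and -2.91 for miR-130b and between -2.90 and -2.61 for miR-301a, a description of the values that chose the family. That of miR-130a, run after seeing the data, lay between -2.15 and -1.41 and was not called without EVs replicate 1 or 3 or Cells replicate 2 or 3, with 0.1 added to each arm, or with edgeR (-1.42). Shifts of the group levels and the 3p shares were set against 1 SD between replicates. Leaving out 1 of 3 libraries cannot move a mean that far, so those alternatives could not decide this. With the TMM factor, the cell levels of miR-130a-3p, miR-130b-3p and miR-301a-5p and the EV level of miR-301b-3p moved by more than 1 SD. The other levels with the TMM factor, and the 3p shares after thinning, moved by less. In cells, miR-301b-3p rested on 18 reads, miR-301a-5p on 32 and miR-130b-3p on 46.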
